A study of Mus musculus with 48 samples.

Results

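The genes described here are 9 CC chemokines, *Ccl2*, *Ccl3*, *Ccl4*, *Ccl5*, *Ccl7*, *Ccl8*, *Ccl9*, *Ccl11* and *Ccl20*, taken by symbol from an expression table that held 24010 genes after its lines were joined. The table lists 18 CC chemokine ligands in all. The 9 were chosen by measured values, with their day 15 differences between the groups and their fall from mouse embryonic fibroblasts (MEFs) to day 3 already seen, so both are given below as descriptions without a test. Poly(A) RNA was sequenced in 48 libraries, 3 in each of 16 groups. All groups came from reprogrammable MEFs of transgenic mice that carry *Rosa26*-M2rtTA, a *Col1a1* allele with doxycycline-inducible OSKM (Oct4, Sox2, Klf4 and c-Myc) and the *Oct4*-GFP reporter. The MEF group received no doxycycline. The other 15 groups received 1 µg/ml doxycycline and were sampled on days 3, 6, 9, 12 and 15 in 3 arms, with an empty vector (Control OE), with overexpressed *Mettl14* (*Mettl14* OE) or with overexpressed *Mettl3* (*Mettl3* OE), the genes of the RNA-binding and the catalytic subunit of the m6A methyltransferase. The vectors' promoters, and whether the 3 libraries of a group came from separate cultures, are not given in the sources used here, and p-values can speak only for the scatter among these libraries, which may be technical.

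Levels are in FPKM, fragments per kilobase of transcript and per M mapped fragments, so they are per length and can be compared between genes. The deposited file joins 3 tables side by side, with MEFs and day 3, days 6 and 9, and days 12 and 15. Across the joins between days 3 and 6 and between days 9 and 12, day and table cannot be told apart, and those steps are given as levels only. The FPKM of all genes in a library summed to a median of 234441, 392245 and 432182 in the 3 tables, so levels across a join may differ in scale. The overexpressed genes matched the labels: *Mettl14* had 184 to 476 FPKM across the 15 libraries of its arm against 4.30 to 7.47 FPKM in the 33 others, and *Mettl3* had 1078 to 2919 FPKM across the 15 of its arm against 3.33 to 6.79 FPKM elsewhere. The lowest FPKM values put the depth at about 12.6 to 36.6 M fragments a library, with a median of 22.7. The fibroblast collagen *Col1a1* lay at 71.3 to 74.5 FPKM in MEFs, and no T and NK cell marker reached 1 FPKM in any library. Each library is a bulk culture, in which fewer cells of a type and less RNA per cell cannot be told apart.

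Chemokines are small secreted proteins that draw leukocytes along a gradient by binding G protein-coupled receptors on the target cell. The CC family is named for a pair of adjacent cysteines near the amino end of the mature protein. Fibroblasts make several of its members, above all *Ccl2*, in response to NF-kB signalling, and CCL2 is among the factors that senescent cells secrete as part of the senescence-associated secretory phenotype. The 30 bases of coding sequence around that cysteine pair are shown for 8 of the genes because the pair is what they share by definition. Each runs from 5′ to 3′, with the cysteine codons in capitals, and was read from the GENCODE M21 annotation of GRCm38.
Ccl2: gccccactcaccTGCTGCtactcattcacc
Ccl7: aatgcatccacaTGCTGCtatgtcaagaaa
Ccl8: gctccagtcaccTGCTGCtttcatgtacta
Ccl11: atcccaacttccTGCTGCtttatcatgacc
Ccl5: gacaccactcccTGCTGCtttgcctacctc
Ccl9: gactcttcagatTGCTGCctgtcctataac
Ccl4: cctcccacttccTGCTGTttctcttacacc
Ccl20: agcaactacgacTGTTGCctctcgtacata
The codon pair was TGC followed by TGC in 6 of the 8 genes, TGC followed by TGT in *Ccl4* and TGT followed by TGC in *Ccl20*. It lay in exon 2 of each of the 8 except *Ccl9*, where it lay in exon 3. On GRCm38 the pair stood at chr11:82036506-82036511 in *Ccl2* and at chr11:82046538-82046543 in *Ccl7*, both on the plus strand. *Ccl2*, *Ccl7*, *Ccl11* and *Ccl8*, the monocyte chemoattractant and eotaxin genes, neighbour each other on chromosome 11 with only *Ccl12* among them, and *Ccl5*, *Ccl9*, *Ccl3* and *Ccl4* follow further along. *Ccl20* is on chromosome 1. No 50-base run of a member's transcript occurred in another gene, except for 59 of 2996 runs in *Ccl9* (1.97%), so reads could be shared with other genes for a small part of that gene only.

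*Ccl2* and *Ccl7* carried nearly all of the summed FPKM of the 9 genes. *Ccl2*, a ligand of Ccr2 that recruits monocytes, ranged from 14.6 to 230 FPKM over the 48 libraries, and *Ccl7*, which binds Ccr1, Ccr2 and Ccr3, from 6.10 to 72.8 FPKM. Both stayed above 1 FPKM in every library. The other 7 genes were low or absent in most. *Ccl20* reached 1 FPKM in 10 libraries, *Ccl8* in 18, *Ccl9* in 6 and *Ccl5* in 3, while *Ccl3*, *Ccl4* and *Ccl11* reached it in none. The summed level of the 9 genes had a median of 267 FPKM in MEFs, 26.2 FPKM in Control OE on day 3 and 137 FPKM in Control OE on day 15. The 7 lower genes together made up 5.23% to 6.39% of that sum in MEFs and 1.02% to 1.87% of it in Control OE on day 3.

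**Figure D1:**
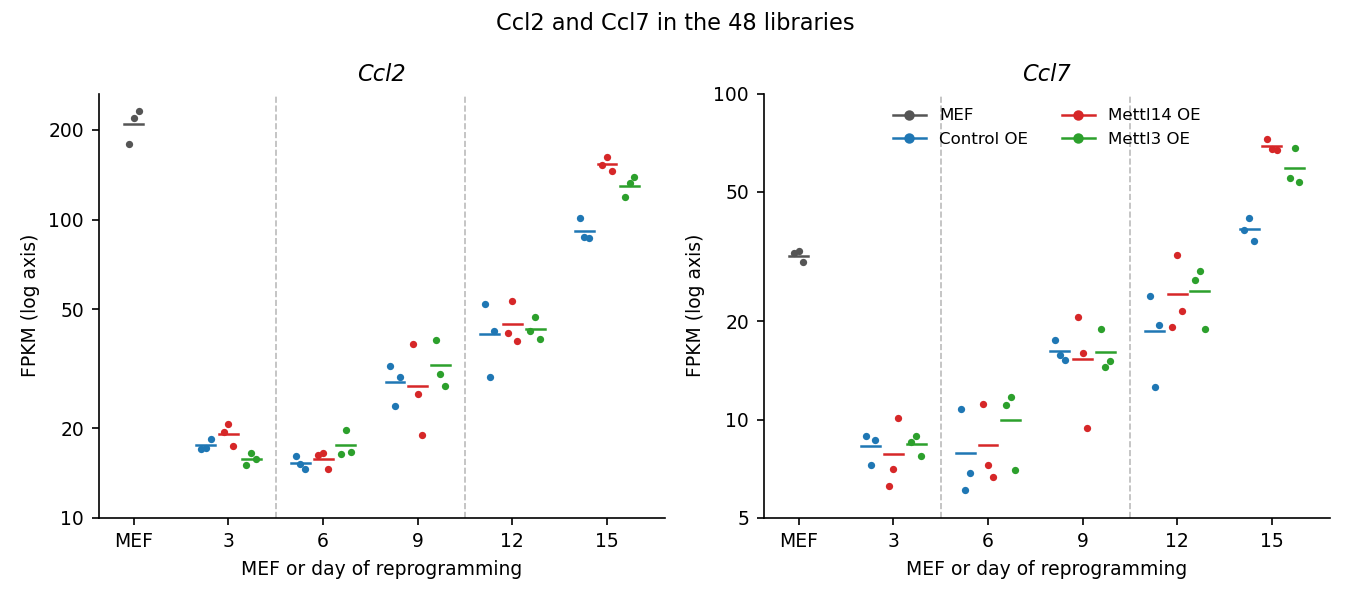
FPKM (log axis) of *Ccl2* and *Ccl7* in MEFs and on each day, with a point for each library, a bar at the mean of 3 libraries, and dashed lines where the joined tables meet. *Ccl2* lay at 179 to 230 FPKM in MEFs, at or below 20.6 FPKM on days 3 and 6, and at 86.9 to 162 FPKM on day 15.

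From MEFs to day 3, *Ccl2*, *Ccl7*, *Ccl5*, *Ccl9* and *Ccl3* were lower in all 3 arms. *Ccl2* was measured at 179, 219 and 230 FPKM in the 3 MEF libraries. On day 3 it lay at 17.0, 17.2 and 18.3 FPKM in Control OE, at 17.4 to 20.6 FPKM in *Mettl14* OE and at 15.1 to 16.5 FPKM in *Mettl3* OE. No day 3 library came near the MEF range. *Ccl7* lay at 32.4, 32.8 and 30.4 FPKM in MEFs and at 8.92, 7.28 and 8.65 FPKM in Control OE on day 3. On the scale of log2(FPKM + 1), *Ccl2* changed by -3.50 (SE 0.16) in Control OE, by -3.38 in *Mettl14* OE and by -3.64 in *Mettl3* OE. *Ccl7* changed less on that scale, by -1.83 (SE 0.23), -1.92 and -1.81. The comparisons of the 3 arms share the same MEF libraries and are no independent repeats.

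*Ccl5*, a chemokine that attracts T cells and monocytes, was the member that all but left the table. Its MEF levels of 8.87, 12.1 and 14.8 FPKM rested on about 41 to 115 fragments per library. It was listed at 0 in all 3 Control OE libraries of day 3 and stayed at or below 0.961 FPKM in each of the 45 libraries after MEFs. *Ccl9*, which signals through Ccr1 in mice, lay at 1.93, 2.12 and 1.91 FPKM in MEFs and at 0.0670 to 0.270 FPKM in Control OE on day 3. Its log2 change was -1.37 (SE 0.13) in Control OE, -1.38 in *Mettl14* OE and -1.50 in *Mettl3* OE. *Ccl3*, a macrophage inflammatory protein that binds Ccr1, lay at 0.558 to 0.856 FPKM in MEFs and was listed at 0 in 8 of the 9 libraries of day 3. Calls here and below mean a 1.5-fold change of FPKM + 1 together with an adjusted p of 0.05 in limma. In each arm *Ccl2*, *Ccl5*, *Ccl7* and *Ccl9* met both, which only describes values that the genes were chosen by. The share of 12738 genes that met both was 20.4% in Control OE, 20.3% in *Mettl14* OE and 21.7% in *Mettl3* OE. *Ccl5* entered the fit only through its MEF libraries, since none of its other libraries reached 1 FPKM. Over the same step the summed level of 23 macrophage and monocyte markers went from 12.3 to 13.6 FPKM in MEFs to 8.94 to 9.73 FPKM in Control OE. The summed level of 16 fibroblast markers went from 1163 to 1243 FPKM in MEFs to 757 to 820 FPKM in Control OE. The part of either in the chemokine levels was not tested.

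The proportion of *Ccl7* to *Ccl2* shifted over this step. The FPKM of *Ccl7* divided by that of *Ccl2* was 0.132 to 0.181 in the MEF libraries and 0.424 to 0.526 in Control OE on day 3. The ratio was 0.322 to 0.584 in *Mettl14* OE and 0.492 to 0.566 in *Mettl3* OE on that day. Every library of day 3 lay above every MEF library. Over days 6 to 15 the ratio ranged from 0.378 (Control OE on day 15) to 0.685 (*Mettl14* OE on day 6), and the arms of a day overlapped except for Control OE and *Mettl3* OE on day 12. *Ccl2* and *Ccl7* thus rose again without a return to the MEF proportion.

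**Figure D2:**
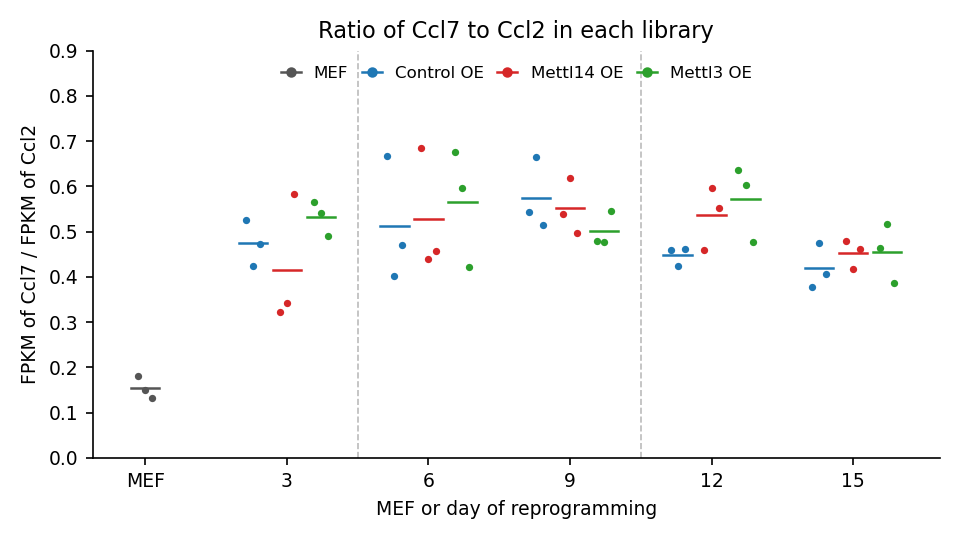
FPKM of *Ccl7* divided by FPKM of *Ccl2* in each library, with a bar at the mean of 3 libraries and dashed lines where the joined tables meet. MEF libraries sit at 0.132 to 0.181, below all 45 libraries of days 3 to 15.

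On day 6, in a separate table, *Ccl2* and *Ccl7* lay near their day 3 levels, and by day 9 both had risen in all 3 arms. *Ccl2* lay at 14.6 to 16.2 FPKM in Control OE on day 6 and at 23.7 to 32.3 FPKM on day 9, without overlap. The rise was 0.85 on the log2 scale (SE 0.16) in Control OE with a limma adjusted p of 6.7e-05, 0.72 (adjusted p = 5.7e-04) in *Mettl14* OE and 0.84 (adjusted p = 6.5e-05) in *Mettl3* OE. *Ccl7* went from 6.10 to 10.8 FPKM on day 6 to 15.3 to 17.6 FPKM on day 9 in Control OE. It rose by 0.98 (SE 0.23, limma adjusted p = 6.8e-04) there, by 0.77 (adjusted p = 0.0067) in *Mettl14* OE and by 0.67 (adjusted p = 0.015) in *Mettl3* OE. Among all tested genes 10.4%, 10.1% and 13.3% passed both thresholds over this step in the 3 arms. *Ccl8*, a monocyte chemoattractant that acts on Ccr8 in mice, was also called in *Mettl14* OE, with a log2 change of 0.73 (SE 0.26, limma adjusted p = 0.025), from 0.156 to 0.659 FPKM on day 6 to 0.613 to 1.90 FPKM on day 9. Without replicate 1 of *Mettl14* OE on day 9, where *Ccl2* and *Ccl7* were also highest of that group, none of the 3 genes was called in *Mettl14* OE, with *Ccl2* at 0.47, *Ccl7* at 0.54 and *Ccl8* at 0.56. Without replicate 3 of *Mettl14* OE on day 6 only *Ccl2* was called there, and likewise in *Mettl3* OE without replicate 3 of day 6 or replicate 1 of day 9. *Ccl8* was also not called in *Mettl14* OE without replicate 1 of day 6 or replicate 2 of day 9, or after quantile normalization. Whether the step differed between an arm and Control OE was tested as an interaction. No member was called for either arm, and none had an unadjusted p under 0.05. Of 12738 genes 0% were called for *Mettl14* OE (250 at an unadjusted p under 0.05) and 0.526% for *Mettl3* OE (1644 at that threshold). The 95% interval of this difference ran from -0.60 to 0.34 for *Ccl2* in *Mettl14* OE.

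A further rise came between days 12 and 15. *Ccl2* was measured at 29.6 to 52.0 FPKM in Control OE on day 12 and at 101, 87.6 and 86.9 FPKM on day 15. The *Mettl14* OE libraries moved from 39.1 to 53.5 FPKM to 152, 162 and 145 FPKM, and in *Mettl3* OE from 39.6 to 47.1 FPKM to 119, 132 and 138 FPKM. Within no arm did the libraries of the 2 days overlap. The log2 changes were 1.16 (SE 0.16) in Control OE with a limma adjusted p of 3.6e-06, 1.76 (adjusted p = 5.3e-10) in *Mettl14* OE and 1.57 (adjusted p = 1.7e-08) in *Mettl3* OE. *Ccl7* rose by 1.04 (SE 0.23, limma adjusted p = 0.0016), 1.51 (adjusted p = 1.0e-05) and 1.23 (adjusted p = 4.1e-04). The day 15 libraries of these steps are also those of the comparisons between arms on which the genes were picked. The p-values of this step are thus no independent evidence of a rise. Over all genes tested, 3.11% passed both thresholds in Control OE, 4.51% in *Mettl14* OE and 1.53% in *Mettl3* OE.

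*Ccl20*, the ligand of Ccr6 that draws dendritic cells and certain T cells to epithelia, appeared almost anew. It lay at or below 0.547 FPKM in all 30 libraries up to day 9 and at 0.366 to 1.05 FPKM on day 12. On day 15 it was measured at 2.61, 2.98 and 2.55 FPKM in Control OE, at 4.01, 3.04 and 3.80 FPKM in *Mettl14* OE and at 4.03, 2.51 and 2.67 FPKM in *Mettl3* OE. Every day 15 library lay above every earlier one. The log2 changes from day 12 were 1.21 (SE 0.12), 1.49 and 1.13 in the same order. *Ccl20* entered the fit through its day 15 libraries, since only 1 other library reached 1 FPKM, so these changes are given without a p-value.

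*Ccl8* and *Ccl9* rose over the same days at lower levels and less evenly. Their day 15 libraries were also seen when the genes were picked, so their p-values are no independent evidence of a rise. *Ccl8* lay at 1.31, 0.591 and 1.09 FPKM in Control OE on day 12 and at 4.26, 2.78 and 2.69 FPKM on day 15, a log2 change of 1.08 (SE 0.26, limma adjusted p = 0.0043). Its adjusted p was 0.057 when only the libraries of days 12 and 15 entered the fit. In *Mettl14* OE *Ccl8* stood at 8.25, 3.03 and 1.63 FPKM on day 15 and was called at 0.78 (limma adjusted p = 0.024), but without replicate 1 of that group the change was 0.28 (adjusted p = 0.41). It was also not called there without replicate 2 or 3 of day 12, with a pseudocount of 0.1, or with the libraries of days 12 and 15 alone. In *Mettl3* OE *Ccl8* went from 0.186 to 0.949 FPKM to 1.16 to 1.51 FPKM, a change of 0.48 that was not called (limma adjusted p = 0.28). *Ccl9* lay at 0.344, 0.170 and 0.314 FPKM in Control OE on day 12 and at 1.44, 0.589 and 1.03 FPKM on day 15, a log2 change of 0.64 (SE 0.13, limma adjusted p = 4.2e-04). It reached 1 FPKM in 6 libraries, all of MEFs or day 15 and none of day 12. Its entry to the fit thus rested on groups whose values were seen when the genes were chosen. It stayed past the adjusted p but fell below the 1.5-fold threshold without replicate 2 of day 12 (0.58) or replicate 1 of day 15 (0.49), after median-ratio scaling (0.58) and after quantile normalization (0.46). In *Mettl14* OE *Ccl9* missed only the fold threshold, at 0.47 (limma adjusted p = 0.0044), and in *Mettl3* OE it missed both, at 0.31 (adjusted p = 0.13). No *Ccl8* was found in MEFs, where all 3 libraries were listed at 0.

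**Figure D3:**
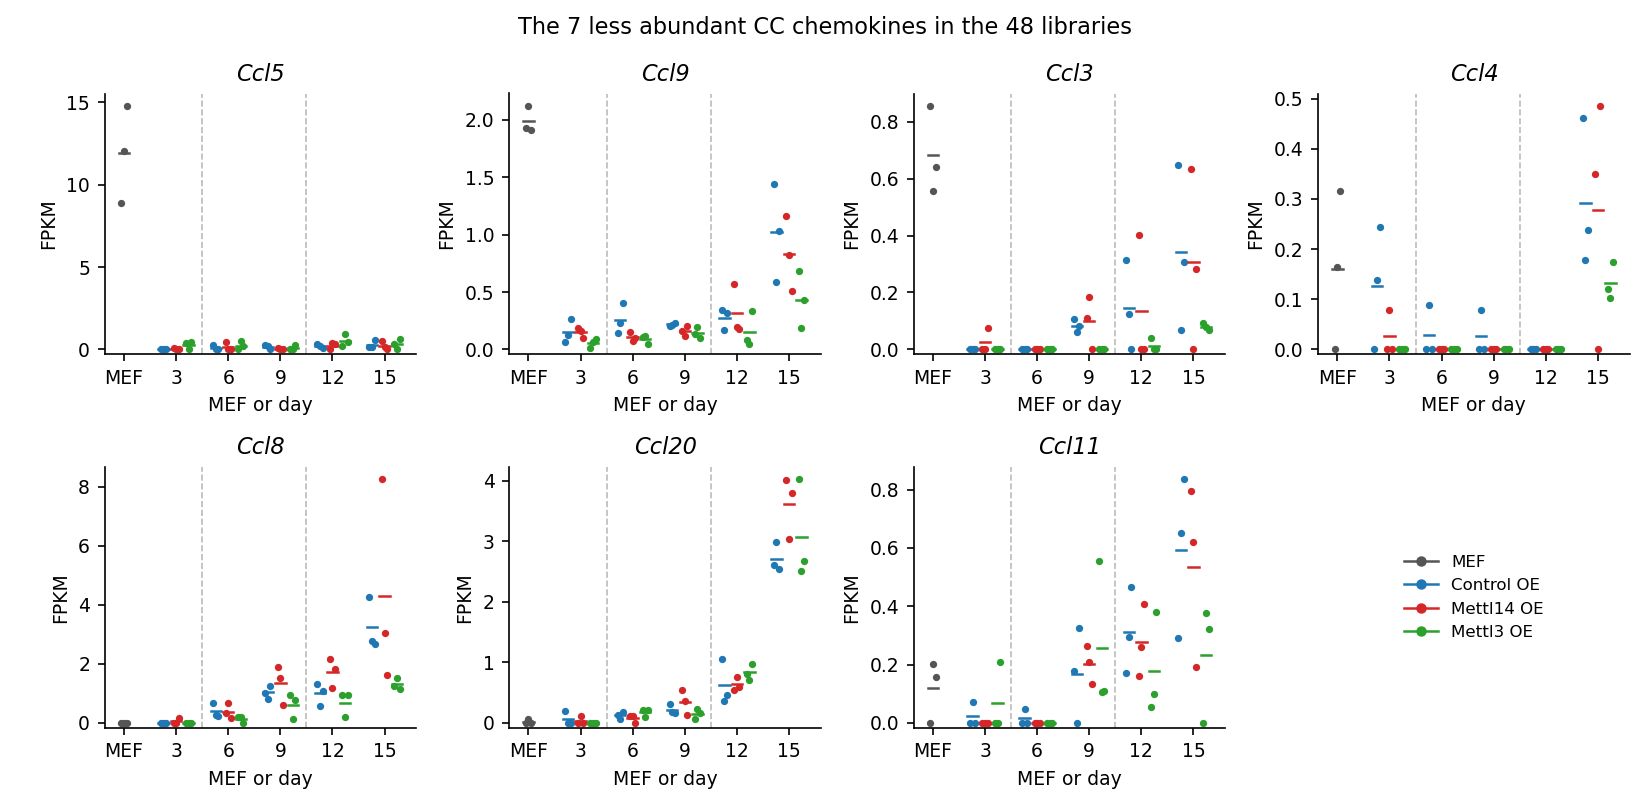
FPKM of the 7 less abundant CC chemokines in MEFs and on each day, with a point for each library, a bar at the mean of 3 libraries, dashed lines where the joined tables meet, and a separate scale for each gene. *Ccl5* is at 8.87 to 14.8 FPKM in MEFs and at or below 0.961 FPKM afterwards, while *Ccl20* exceeds 2.5 FPKM in all 9 libraries of day 15.

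Of the remaining members, *Ccl11* (eotaxin, a ligand of Ccr3 that attracts eosinophils) lay at 0.291 to 0.835 FPKM in Control OE on day 15, about 6 to 19 fragments per library. *Ccl3* lay at 0.0690 to 0.647 FPKM and *Ccl4*, a related inflammatory chemokine, at 0.178 to 0.462 FPKM in the same libraries. *Ccl4* was listed at 0 in all 9 libraries of day 12. These 3 genes failed the filter of 1 FPKM in 3 libraries in every fit, so they are given as values only.

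Against Control OE on the same day, no member passed the test in either arm on days 3, 6, 9 and 12. With limma 0 members were called on these days for *Mettl14* OE and for *Mettl3* OE, and 0 had an unadjusted p under 0.05. Among all genes 337 of 9863, 825 of 11545, 729 of 11792 and 2922 of 11933 had one for *Mettl14* OE on days 3, 6, 9 and 12. For *Mettl3* OE the numbers were 2520, 2707, 2718 and 2955. *Ccl2* and *Ccl7* entered on each of these days, joined by *Ccl8* from day 9. The background was 0.0203%, 0.00866%, 0.017% and 0.0168% of all tested genes called for *Mettl14* OE on days 3, 6, 9 and 12, and 1.58%, 1.59%, 2.78% and 1.38% for *Mettl3* OE. On day 12 *Ccl2* lay at 29.6 to 52.0 FPKM in Control OE and at 39.1 to 53.5 FPKM in *Mettl14* OE, a log2 difference of 0.14 with a 95% interval from -0.27 to 0.54. The day 12 interval for *Ccl7* ran from -0.26 to 1.00 in *Mettl14* OE and from -0.21 to 1.04 in *Mettl3* OE.

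On day 15 *Ccl2* and *Ccl7* were higher in both overexpression arms than in Control OE. The difference was among those on which the genes were picked, so it is a description. *Ccl2* had means of 91.8 ± 7.85 FPKM in Control OE, 153 ± 8.69 FPKM in *Mettl14* OE and 130 ± 10.1 FPKM in *Mettl3* OE (mean ± SD, n = 3). *Ccl7* lay at 38.1, 41.6 and 35.4 FPKM in Control OE, at 72.8, 67.6 and 66.9 FPKM in *Mettl14* OE and at 55.1, 68.3 and 53.4 FPKM in *Mettl3* OE. For both genes every library of either arm exceeded every Control OE library. The share of all genes with such a gap was not counted, here or for the other statements on overlap. *Mettl14* OE exceeded Control OE by 0.73 (SE 0.09) for *Ccl2* and by 0.83 (SE 0.10) for *Ccl7* on the log2 scale, and 0.223% of 12134 genes were called in that comparison. *Mettl3* OE exceeded it by 0.50 for *Ccl2* and by 0.60 for *Ccl7*, where 1.83% of genes were called. Since the genes were chosen by these values, nothing is read from their own place among the calls. *Ccl7* lay just inside the 1.5-fold threshold in *Mettl3* OE and *Ccl2* just outside it.

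The other members were less uniform, and their day 15 intervals take no account of the choice of the genes. *Ccl20* was 0.31 higher in *Mettl14* OE (95% interval 0.03 to 0.58), without overlap between the groups, but was not called, and 0.12 higher in *Mettl3* OE (-0.16 to 0.39). *Ccl8* was 0.14 higher in *Mettl14* OE, with an interval from -0.95 to 1.23, and 0.86 lower in *Mettl3* OE, from -1.95 to 0.23. All 3 *Mettl3* OE libraries of *Ccl8* (1.24, 1.51 and 1.16 FPKM) lay below all Control OE libraries. *Ccl9* had log2 differences of -0.13 in *Mettl14* OE and -0.49 in *Mettl3* OE. The *Ccl9* libraries of *Mettl3* OE and Control OE overlapped.

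**Figure D4:**
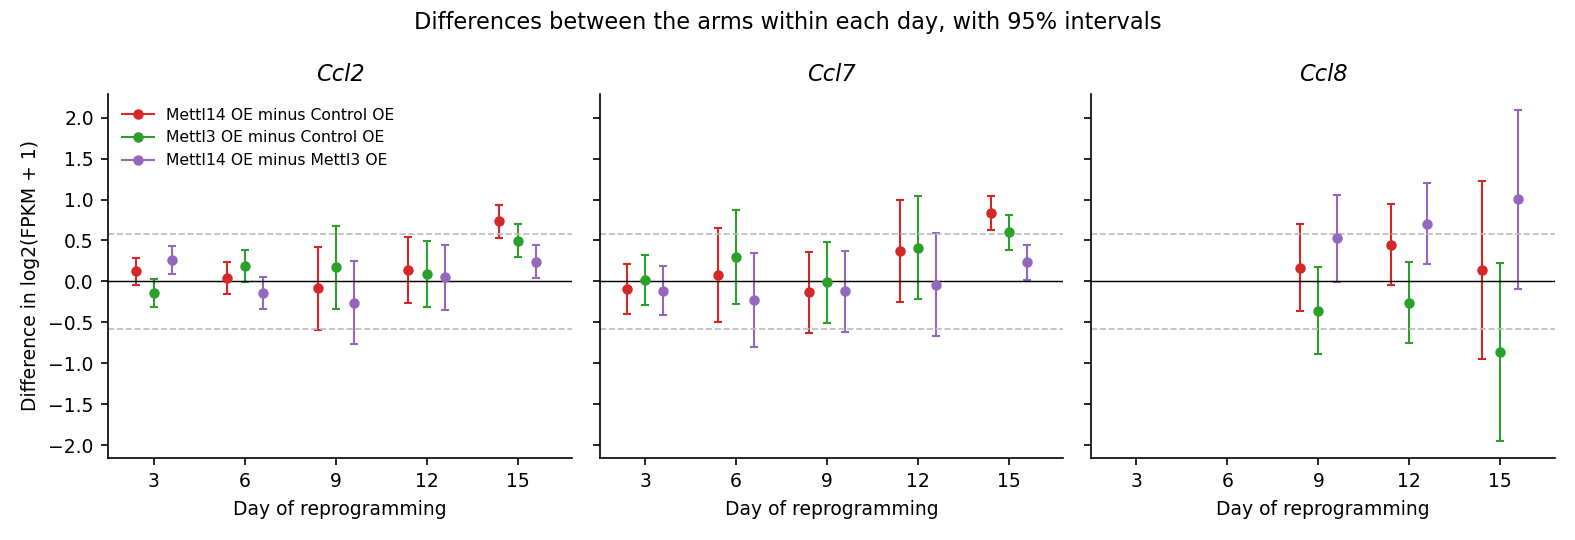
Differences between the arms in log2(FPKM + 1) within each day, with 95% intervals from limma, for *Ccl2*, *Ccl7* and *Ccl8* (tested from day 9), and dashed lines at a 1.5-fold change. The intervals of *Ccl2* and *Ccl7* against Control OE include 0 on days 3 to 12. On day 15 the differences are 0.73 and 0.83 in *Mettl14* OE and 0.50 and 0.60 in *Mettl3* OE. The genes were chosen by these values, and the day 15 intervals take no account of that choice.

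The 2 arms were also compared with each other. The day 15 levels of both had been seen when the genes were chosen, so the day 15 values of this comparison are no independent evidence of a difference. With limma 0 members were called on any day. An unadjusted p under 0.05 was met by 1 member on day 3 (*Ccl2*), 0 on day 6, 0 on day 9, 1 on day 12 (*Ccl8*, limited as given below) and 2 on day 15 (*Ccl2* and *Ccl7*). Among all genes 2004 of 9863, 3005 of 11545, 3768 of 11792, 3015 of 11933 and 1289 of 12134 met it on the 5 days. Of all genes 1.12%, 1.87%, 3.01%, 0.93% and 0.272% were called on the 5 days. On day 15 *Mettl14* OE exceeded *Mettl3* OE by 0.24 (SE 0.09) in *Ccl2*, with a 95% interval from 0.04 to 0.44. The 3 *Mettl14* OE libraries (145 to 162 FPKM) all lay above the 3 *Mettl3* OE libraries (119 to 138 FPKM). *Ccl7* differed by 0.23 (0.02 to 0.45), with overlap. *Ccl8* differed by 1.00 (-0.09 to 2.09) and did not overlap, with 1.63 FPKM the lowest *Mettl14* OE value and 1.51 FPKM the highest *Mettl3* OE value. On day 12 *Ccl8* lay at 2.16, 1.17 and 1.83 FPKM in *Mettl14* OE and at 0.949, 0.186 and 0.937 FPKM in *Mettl3* OE, a difference of 0.71 (SE 0.22). It passed the filter on that day only through *Mettl14* OE, where it was high, so this difference is given without a p-value. The same limit holds for its call without replicate 2 of *Mettl14* OE.

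*Ccl8* and *Ccl9* are also made by macrophages, and macrophage and monocyte markers were higher on day 15 as well. The list holds 24 genes, of which 23 were in the table and 17 reached 1 FPKM in some library. On day 15 the summed level of the 23 was 87.1, 49.1 and 70.1 FPKM in Control OE and 110, 69.3 and 56.8 FPKM in *Mettl14* OE. In *Mettl3* OE it was 37.9, 32.7 and 35.9 FPKM, below every library of the other arms. On day 12 all 9 libraries lay between 17.6 and 29.9 FPKM. In *Mettl14* OE on day 15, replicate 1 had the highest sum, the highest *Ccl8* (8.25 FPKM) and the highest *Ccl9* (1.16 FPKM), and replicate 3 the lowest of each. In *Mettl3* OE on day 15 the order differed, and replicate 2 had the lowest sum, the highest *Ccl8* (1.51 FPKM) and the lowest *Ccl9* (0.185 FPKM). From day 12 to day 15 the 15 tested markers had median log2 changes of 0.90 in Control OE, 1.22 in *Mettl14* OE and 0.62 in *Mettl3* OE. The medians over all genes were 0.08, 0.15 and -0.01. *Lyz2*, the lysozyme of myeloid cells, went from 2.15 to 4.03 FPKM to 10.4 to 19.3 FPKM in Control OE. The pan-leukocyte gene *Ptprc* stayed at or below 0.413 FPKM in all libraries of day 15, and *Adgre1*, which encodes the macrophage antigen F4/80, lay at 0.424 to 1.30 FPKM in Control OE and *Mettl14* OE and at 0.0786 to 0.186 FPKM in *Mettl3* OE. The part of these cells in the levels of *Ccl8* and *Ccl9* was not tested.

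**Figure D5:**
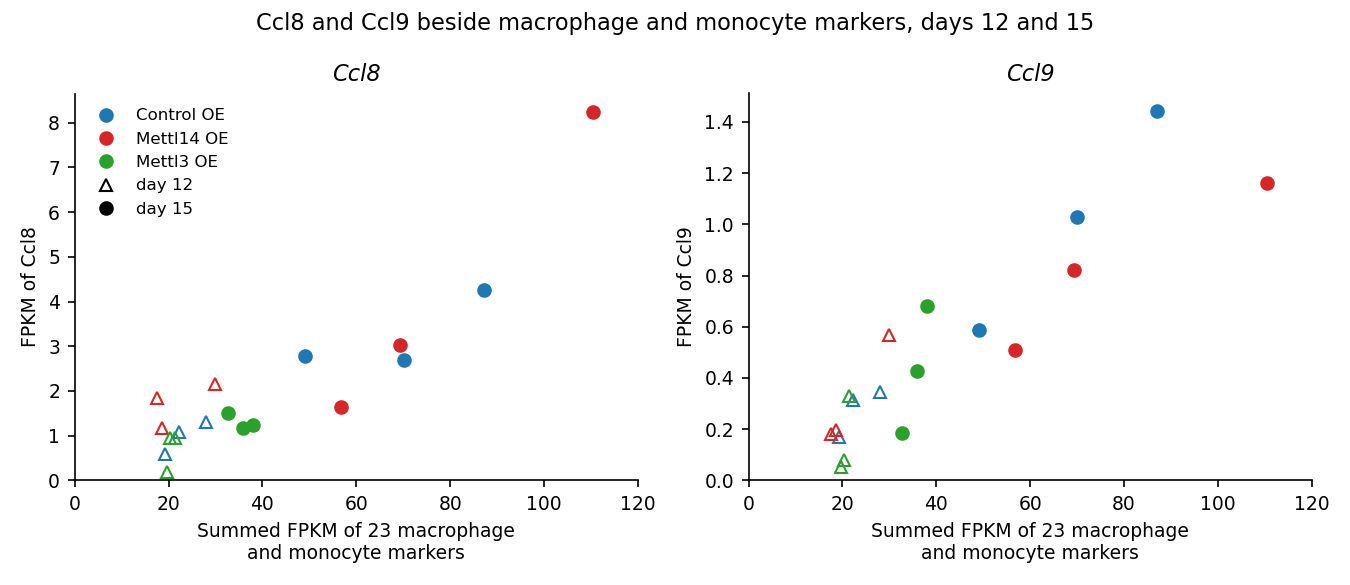
FPKM of *Ccl8* and *Ccl9* against the summed FPKM of 23 macrophage and monocyte markers in the 18 libraries of days 12 (open triangles) and 15 (filled circles). The *Mettl3* OE libraries of day 15 sit at sums of 32.7 to 37.9 FPKM, below those of Control OE and *Mettl14* OE at 49.1 to 110 FPKM.

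Few other CC ligands were present. Of a list of 15, 9 were in the table and 4 reached 1 FPKM. *Ccl12*, the gene between *Ccl11* and *Ccl8* whose product binds Ccr2 in mice, appeared late. It was at 0 in most libraries up to day 9 and lay at 1.30 to 1.91 FPKM in Control OE, 0.335 to 2.07 FPKM in *Mettl14* OE and 0 to 0.164 FPKM in *Mettl3* OE on day 15. It was lower in *Mettl3* OE than in Control OE, by a log2 difference of -1.19 (SE 0.26). On none of days 3 to 12 did *Ccl12* reach 1 FPKM in 3 libraries. On day 15 it entered the fit only through Control OE and *Mettl14* OE, where it was high, so its changes are given without a p-value. From day 12 it rose by 0.98 in Control OE and by 0.75 in *Mettl14* OE. *Ccl27a*, an epithelial chemokine of skin, lay at 3.75 to 6.74 FPKM in Control OE on day 15 and rose over the same step by 0.72 (limma adjusted p = 0.046). In *Mettl14* OE it rose by 0.75 (adjusted p = 0.024).

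The receptors examined for these ligands were low in the cultures. Of the CC chemokine receptors, 10 were examined, all of them in the table, and 0 of these reached 1 FPKM in any library, the highest value being 0.858 FPKM for *Ccr10* in Control OE on day 15. Atypical receptors, which bind chemokines without G protein signalling and clear them, were present. Of a list of 10 genes for these and related receptors 6 were in the table and 5 reached 1 FPKM. *Ackr3*, which takes up Cxcl12, lay at 1.54 to 1.91 FPKM in MEFs, at 5.25 to 7.44 FPKM in Control OE on day 3 and at 48.7 to 54.6 FPKM in Control OE on day 15. It rose from MEFs to day 3 by 1.46 (limma adjusted p = 3.3e-11), the opposite direction to *Ccl2* over that step. *Ackr1*, which binds many inflammatory CC and CXC chemokines including Ccl2, went from 0.0366 to 0.149 FPKM in MEFs to 2.65 to 2.97 FPKM in Control OE on day 15, with a rise of 0.64 from day 12 (limma adjusted p = 5.2e-04). In *Mettl3* OE on day 15 *Ackr1* lay at 1.38 to 1.78 FPKM, 0.58 lower than Control OE (limma adjusted p = 0.0059) but short of a 1.5-fold change. *Ccrl2*, which binds chemerin and does not signal, rose from day 12 in all 3 arms, by 0.79 to 0.88. Among days 3 to 15 it reached 1 FPKM in 3 libraries on day 15 only, so these changes are given without a p-value.

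By Pearson correlation of log2(FPKM + 1), taken within each of the 3 joined tables (12, 18 and 18 libraries) and averaged, the genes most like *Ccl2* among 10045 were *Tnfaip3* (mean r 0.95), *Ifi205* (0.95) and *Cxcl1* (0.95). *Ccl7* itself was next (0.95). Those most like *Ccl7*, after *Ccl2*, were *Cxcl1* (0.95), *Nfkbiz* (0.93) and *Ifi205* (0.93). *Cxcl1* is a neutrophil-attracting CXC chemokine, and *Tnfaip3* and *Nfkbiz* encode regulators of NF-kB signalling. The libraries of a table share their days and arms, so these values describe a common time course. The other 7 members did not pass the filter in all 3 tables and were not ranked.

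Promoter sequence, 250 bases before to 50 after the gene start on GRCm38.p6 from RefSeq, was at hand for 4 of the 9 members. It is shown for the 3 of them that rose in Control OE between days 12 and 15, since they rose together from low levels, with matches on either strand to a loose NF-kB pattern (GGG, any 5 bases, then CC) in capitals.
Ccl20 promoter: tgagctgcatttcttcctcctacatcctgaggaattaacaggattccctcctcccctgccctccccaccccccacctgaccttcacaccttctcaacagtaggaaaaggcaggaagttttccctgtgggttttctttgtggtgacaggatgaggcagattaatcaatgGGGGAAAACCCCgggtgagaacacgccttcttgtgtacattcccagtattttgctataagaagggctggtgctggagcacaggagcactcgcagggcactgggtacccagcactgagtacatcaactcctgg
Ccl8 promoter: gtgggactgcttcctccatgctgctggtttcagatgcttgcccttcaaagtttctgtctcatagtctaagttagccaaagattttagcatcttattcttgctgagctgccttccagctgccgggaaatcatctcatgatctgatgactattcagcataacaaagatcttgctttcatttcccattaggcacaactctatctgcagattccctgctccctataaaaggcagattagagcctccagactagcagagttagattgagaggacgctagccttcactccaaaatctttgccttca
Ccl9 promoter: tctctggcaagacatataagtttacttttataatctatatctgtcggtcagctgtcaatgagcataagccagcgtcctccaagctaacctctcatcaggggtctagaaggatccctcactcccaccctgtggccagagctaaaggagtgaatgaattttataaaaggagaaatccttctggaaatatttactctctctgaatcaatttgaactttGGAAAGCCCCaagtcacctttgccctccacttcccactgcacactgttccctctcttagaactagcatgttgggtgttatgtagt
The *Ccl20* window, at chr1:83116516-83116815, held 3 overlapping matches, of which the first began 82 bases before the gene start. The *Ccl9* window, at chr11:83578587-83578886 on the minus strand, held 1 match 35 bases before the start. The *Ccl8* window, at chr11:82114935-82115234, held none. This pattern was found in 50.8% of 32851 promoter windows of the same length, so its presence separates few genes. The stricter NF-kB consensus, searched after that share was seen, was found in 4.51% of the windows, and in *Ccl20* and *Ccl9* once each, within the capitals. The AP-1 pattern TGANTCA, in 7.81% of windows, occurred once in *Ccl9*, 53 bases before the start, and the interferon-response pattern (TTTC, any 2 bases, then TTTC), in 3.44% of windows, in none of the 3.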

How the data were processed

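Per the submitters' processing notes, the authors aligned reads to mm9 with TopHat2 2.1.1 and deposited FPKM values made with Cufflinks 2.2.1, without counts. Libraries had been prepared with a stranded mRNA kit, and groups follow the sample labels. The file holds 24013 lines, of which 1 copies another exactly (*Ccl2*) and was counted once, 4 that share a symbol were summed and 15 carry a date for a name. Arms were compared within a day over 9 libraries, and steps and interactions over all 48, with limma 3.58.1 (trend, robust) in R 4.3.3 on log2(FPKM + 1). A gene entered a fit if 3 or more of its libraries had 1 FPKM or more, and was called at a 1.5-fold change of FPKM + 1 and a Benjamini-Hochberg adjusted p of 0.05 over all genes tested. Adding 1 FPKM understates changes of low genes. In simulated data the test's mean estimates came close to the planted changes. Planted changes were at least 1 on the log2 scale, in genes above the entry filter, so smaller changes and the lowest genes were not covered. Depth was estimated from 2993 genes with 1 annotated transcript, with settings set once the values had been seen. All 9 members are named, with called members of the ligand and receptor lists, at most 4 a list by size of change, the 3 genes most like each ranked member, and few markers. Some items are not reported here. The members and lists were chosen with earlier results of these data known. Tables and plots used pandas 2.3.3 and matplotlib 3.10.9 under Python 3.11.15. Alternatives were pseudocounts of 0.1 and 0.5, no filter or 5 FPKM, median-ratio scaling, quantile normalization, library weights, a replicate block, no fold threshold, other sets of libraries and each replicate left out.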

Additional observations from a re-analysis of the deposited data

How the results depend on the processing

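No result turned in direction. Of the counts of members called, 249 values under alternatives that kept all replicates of a comparison stayed within 1.5 times the reported count and 9 did not. For *Mettl14* OE against *Mettl3* OE, library weights called 1 member on day 9 and 1 on day 12, *Ccl8* both times. In the main fit *Ccl8* passed the day 12 filter only through *Mettl14* OE, where it was high. For *Mettl14* OE against Control OE on day 15, the fit to all 48 libraries called 1 (*Ccl2*). For *Mettl3* OE against Control OE on day 15, median-ratio scaling called 2 (*Ccl2* and *Ccl7*), library weights 2 (*Ccl8* and *Ccl9*) and the adjusted p alone 2 (*Ccl2* and *Ccl7*). With a filter of 5 FPKM, which removes the low members, 2 were called from day 12 to 15 in Control OE and 2 in *Mettl14* OE. The log2 change of a single called member counted as kept if it was still called. In the comparisons that chose the genes it had to stay within the SD among libraries instead. Under these alternatives 297 such values were kept and 6 were no longer called. Another 27, all in the comparisons that chose the genes, moved further. The cause of these and the other shifts was not tested.

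With each replicate left out in turn, the count ranged from 0 to 1 for *Mettl14* OE against *Mettl3* OE on day 12, from 0 to 2 for *Mettl3* OE against Control OE on day 15 (0 without replicate 3 of Control OE or replicate 2 of *Mettl3* OE, 2 without replicate 2 of Control OE), from 0 to 3 for *Mettl14* OE and from 1 to 3 for *Mettl3* OE over days 6 to 9. The other 136 such counts stayed within 1.5 times. For single called members, 181 values were kept and 14 were no longer called. Same-numbered libraries of different arms did not deviate together in every pair (correlations from -0.418 to 0.444 across genes). On day 6, 4 of 9 such pairs had a correlation over 0.1, beside 4 of 18 pairs with different numbers. On days 3, 9, 12 and 15 it was 0, 1, 3 and 2 of 9, beside 5, 6, 6 and 5 of 18. The labels do not say whether the numbers pair libraries, and the main fits did not pair them. With the replicate block, *Mettl14* OE against *Mettl3* OE on day 12 called 1 member (*Ccl8*), and no other count of members moved past that limit. Depth limits *Ccl3*, *Ccl4*, *Ccl5*, *Ccl8*, *Ccl11* and *Ccl20*, which rest on few fragments in most libraries. It also limits *Ccl9*, with an estimate of under 15 fragments in 26 of 48 libraries.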
